A study of Rattus norvegicus with 16 samples.

Results

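The mitochondrial ribosomal protein genes were taken as all genes whose symbol is Mrpl or Mrps followed by a number, which gave 64 of the 17245 genes tested, 39 of the large subunit (Mrpl) and 25 of the small subunit (Mrps). They were measured in right ventricular wall of 16 male Wistar rat samples, with rats of 160 to 180 g body weight, on 1 Affymetrix array each. Some rats had a sham operation and others pulmonary artery banding, a narrowing of the vessel that makes the right ventricle pump against high pressure. The labels give 7 samples as CON, the controls of the design text, 5 as RVF+ and 4 as RVF. They do not explain these names and do not state which sample had which operation. The title of the series names right ventricular failure under a chronic pressure load, with symptoms and diastolic dysfunction as its subject. No age, time after operation or other allele or agent is given, and nothing says that each sample was its own animal. The p-values therefore reflect the spread among these samples alone, part or all of which may be technical.

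Mitochondria carry their own ribosome, which translates the few messenger RNAs of mitochondrial DNA, all of them for subunits of the respiratory chain and ATP synthase. Its ribosomal RNAs come from mitochondrial DNA, while all of its proteins are encoded in the nucleus, made in the cytosol and imported. The small subunit binds the messenger RNA and decodes it, and the large subunit joins the amino acids and releases the chain towards the inner membrane. Heart muscle is rich in mitochondria, and inherited defects of several of these proteins, MRPL3 and MRPL44 among them, are known in humans as causes of cardiomyopathy. Names can differ from place: Mrps30 and Mrps18a were named as small subunit proteins, but structures of the mammalian ribosome show both in the large subunit.

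The promoters of a few members are shown, from the RefSeq table for GRCr8, which held entries for 52 of the 64 genes. Shown are the 150 bases before the annotated start, read 5′ to 3′ along the gene. Mrps31 (chr16:76324066-76324215, minus strand) and Mrpl4 (chr8:27815621-27815770, plus strand) were among the 3 members with the smallest p in RVF+ against CON, and Mrps26 (chr3:138222174-138222323, plus strand) was the member that rose there. Mrpl44 (chr9:88554900-88555049, plus strand), Mrpl45 (chr10:82804889-82805038, plus strand), Mrpl48 (chr1:164351377-164351526, minus strand) and Mrps18c (chr14:9122907-9123056, minus strand) were lower in both groups. They were added because they hold a motif of NRF1 or ETS factors in this stretch. Capitals mark a match to the motif of NRF1 (GCGCA, any base, then GCGC) in Mrpl44 and Mrpl45, and to that of ETS factors such as GABPA (CCGGAAGT, here as its reverse complement ACTTCCGG) in Mrpl48 and Mrps18c. Both factors are known to act on nuclear genes of mitochondrial proteins. Mrpl27, Mrpl30, Mrpl32 and Mrpl53, lower in neither group, also hold a match to one of these motifs in this stretch and are not shown. Neither are Mrpl17, Mrps18b and Mrps27, which hold such a match there and were called lower in RVF+ alone.
Mrps31: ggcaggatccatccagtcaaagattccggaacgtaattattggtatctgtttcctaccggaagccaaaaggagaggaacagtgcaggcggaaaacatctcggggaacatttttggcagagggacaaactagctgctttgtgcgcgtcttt
Mrpl4: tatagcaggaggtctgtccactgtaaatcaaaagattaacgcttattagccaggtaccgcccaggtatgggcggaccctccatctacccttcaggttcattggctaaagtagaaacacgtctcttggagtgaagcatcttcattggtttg
Mrps26: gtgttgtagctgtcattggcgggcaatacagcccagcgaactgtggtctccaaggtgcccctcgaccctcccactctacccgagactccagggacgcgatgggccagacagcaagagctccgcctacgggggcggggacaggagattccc
Mrpl44: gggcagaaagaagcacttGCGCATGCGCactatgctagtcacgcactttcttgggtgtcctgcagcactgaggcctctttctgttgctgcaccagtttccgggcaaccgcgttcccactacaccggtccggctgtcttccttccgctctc
Mrpl45: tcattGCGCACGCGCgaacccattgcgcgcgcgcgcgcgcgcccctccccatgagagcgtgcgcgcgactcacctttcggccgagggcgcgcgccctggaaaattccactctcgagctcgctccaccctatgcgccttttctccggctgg
Mrpl48: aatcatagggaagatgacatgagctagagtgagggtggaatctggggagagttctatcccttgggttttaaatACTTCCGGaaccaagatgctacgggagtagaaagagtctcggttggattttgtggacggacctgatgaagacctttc
Mrps18c: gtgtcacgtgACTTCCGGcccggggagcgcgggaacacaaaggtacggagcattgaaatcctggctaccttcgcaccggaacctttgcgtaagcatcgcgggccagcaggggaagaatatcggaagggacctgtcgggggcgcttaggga

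Over the whole promoter window, from 250 bases before to 50 after the start and on both strands, the NRF1 motif was found in 8 of the 52 members (15.4%), against 7.23% of the 14117 genes tested that have an entry. The ETS motif was found in 8 members (15.4%, against 5.8% of genes), and the YY1 motif AAGATGGC in 13 (25%, against 4.34%). The TATA motif TATAAA was found in 8 members (15.4%, against 12.2%). No 2 of these motifs overlapped in a member, and 10 of the 13 YY1 matches began after the start. In Mrps26 the NRF1 and ETS matches both lay after the start. Of the 24 members with an entry that were lower in RVF+, 5 held the NRF1 motif, 4 the ETS motif and 5 the YY1 motif. Of the 28 that were not lower, 3, 4 and 8 did. These matches describe letters in a window and were not set against the expression values by a test.

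All 12 cardiomyocyte markers were measured. Their summed intensity ranged from 48200 to 51100 in CON arrays, from 27300 to 43000 in RVF+ arrays and from 41600 to 44300 in RVF arrays. RVF+ 8 stood apart from the other arrays. It had 32.6% of all genes below every CON array, against 20.7% to 26.4% in the other arrays of RVF+ and RVF, and a quality weight from limma of 0.174, against 0.7 to 1.79 for the others. Results for RVF+ are therefore also given without it. Fibroblast markers summed to between 8350 and 9810 in CON, 11200 and 12700 in RVF+, and 10800 and 12700 in RVF, and 9 of 12 were higher in RVF+ and 8 of 12 in RVF. Macrophage markers summed to 1010 to 1490, 1990 to 5370 and 1650 to 2370, with 9 and 6 of 10 higher. In the other lists, 2 and 0 of 9 endothelial markers, 4 and 3 of 10 smooth muscle and pericyte markers, 2 and 2 of 9 lymphocyte markers and 5 and 0 of 7 red cell markers were higher. Of all genes, 14.1% were higher in RVF+ and 8.86% in RVF. Without RVF+ 8, 9 and 9 fibroblast, 9 and 9 macrophage, and 3 and 0 endothelial markers were higher in RVF+ and RVF. So were 3 and 3 smooth muscle and pericyte, 2 and 4 lymphocyte, and 6 and 0 red cell markers. The shares of all genes higher in that run were 12.9% and 13.4%. Cell cycle genes were higher in 12 and 5 of 14, and without RVF+ 8 in 11 and 11. Their summed intensity spanned 434 to 567 over the CON arrays, 554 to 2900 over RVF+ and 710 to 826 over RVF, and their median difference was largest in RVF+ 8, at 3.06. Of 5 atrial markers, Nppa, also a stress gene of the ventricle, rose in both (4.26 and 4.57), and Sln and Myl7 were lower in RVF (-1.86 and -1.93, adjusted p = 0.0399 and 0.045) and missed the threshold in RVF+ (-1.49 and -1.52, adjusted p = 0.0554 and 0.0661). No marker had an intensity of 0.

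The first comparison asks how RVF+ differed from CON. Mitochondrial ribosomal protein genes were lower in RVF+: 31 of the 64 fell and 1, Mrps26, rose. Over all genes tested, 13.6% were lower and 14.1% higher, and in the brighter part of the genes, from the median level up, 21.3% and 18.9%, against 48.4% and 1.56% of the members. The fall was modest in size. The median log2 difference was -0.28, against -0.012 over all genes, and the largest was -0.68 (Mrpl4). A call means an adjusted p under 0.05 from limma, Benjamini-Hochberg adjusted over all genes, and a difference of 1 on this scale is a 2-fold change in intensity. In all, 61 members had a negative difference, and 42 were lower at an unadjusted p under 0.05. All 5 RVF+ arrays lay below all 7 CON arrays in 16 members (7.63% of all genes did so) and above them in 1 (6.96%). Without RVF+ 8, 28 members were lower, all among the 31, and none higher, with Mrps26 the call lost (adjusted p = 0.0697). Of all genes, 12% were lower and 12.9% higher in that run. With each array centred on its median, 60.1% of all calls in this comparison were lower instead of 49.2%, and 40 members were lower and 0 higher. Of all genes, 17.4% were lower and 11.6% higher with that centring.

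Of the 12 cardiomyocyte markers, 7 were lower in RVF+ and 0 in RVF, with median log2 differences of -0.32 and -0.13. Without RVF+ 8 these counts were 7 and 4, and the RVF+ median was -0.20. Leaving out that array does not alter a difference in RVF, only the spread that the groups share in the fit. In such bulk tissue, fewer cardiomyocytes in the sample and less RNA per cardiomyocyte cannot be told apart. The part of cell composition in the differences below was not tested.

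**Figure D1:**
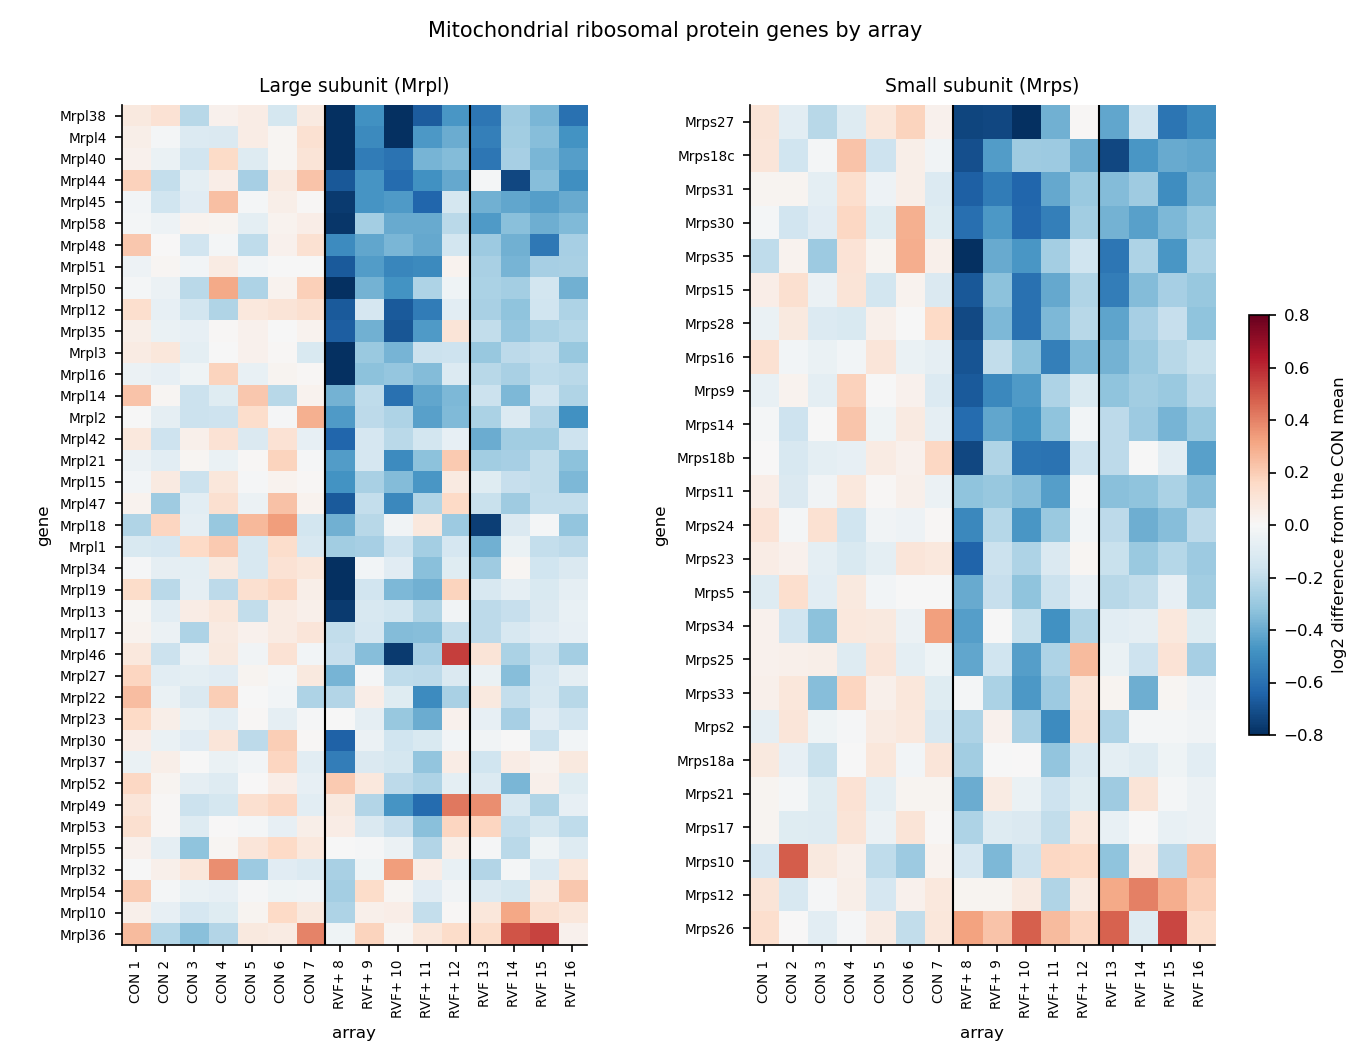
Log2 difference of each mitochondrial ribosomal protein gene from its CON mean, by array, with the 39 large subunit genes left and the 25 small subunit genes right, ordered by the mean of their differences from CON; blue is lower and red higher, colours end at 0.8 in either direction, and black lines part CON, RVF+ and RVF. Most genes were blue in RVF+ 8 to 11 and in all 4 RVF arrays, RVF+ 12 was the palest of its group, and Mrps26 and Mrps12 stood at the foot of the small subunit panel.

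Of the large subunit, 17 of 39 genes fell in RVF+ and 0 rose, with a median of -0.26. Mrpl38, a protein found only in mitochondrial ribosomes that sits in the central protuberance at the top of the subunit, had the smallest p of all members. Its log2 level was 7.30 to 7.64 in CON with a median of 7.58. It was 6.70, 7.03, 6.69, 6.85 and 7.05 in RVF+ 8 to 12, and 6.94, 7.23, 7.16 and 6.92 in RVF 13 to 16. No array of RVF+ or RVF reached the lowest of CON, and RVF+ and RVF overlapped. The difference from CON was -0.65 ± 0.09 in RVF+ (log2 difference ± SE, here and below; 1.57-fold lower, limma adjusted p = 4.87e-05) and -0.45 ± 0.10 in RVF (1.37-fold lower, adjusted p = 0.00324).

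Mrpl4, whose bacterial relative lines the tunnel through which the new chain leaves, fell furthest in RVF+. Its level was 9.59 to 9.83 in CON (median 9.72), then 8.55, 9.20, 8.80, 9.25 and 9.31 in the 5 RVF+ arrays and 9.16, 9.43, 9.37 and 9.23 in the 4 RVF arrays. The groups did not overlap with CON, and RVF+ 8 and 10 were the lowest of all. The difference was -0.68 ± 0.11 in RVF+ (1.61-fold lower, adjusted p = 0.000236) and -0.41 ± 0.12 in RVF (1.33-fold lower, adjusted p = 0.0251). Without RVF+ 8 the RVF+ value was -0.57.

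Mrpl40 and Mrpl48 are, like Mrpl38, proteins of the central protuberance. Mrpl40 was at 8.65 to 8.96 in CON (median 8.82), at 7.42, 8.24, 8.21, 8.43 and 8.46 in RVF+ and at 8.22, 8.54, 8.44 and 8.37 in RVF. RVF+ 8 lay far under the other RVF+ arrays, but all arrays of both groups were below CON. The difference was -0.65 ± 0.14 in RVF+ (adjusted p = 0.00188), while that of -0.41 ± 0.15 in RVF did not pass (adjusted p = 0.0634). Mrpl40 passed in RVF without RVF+ 8 (adjusted p = 0.00113) and with array weights (adjusted p = 0.00221). Over all runs with 1 array left out, its adjusted p in RVF was up to 0.186. A second probe set of Mrpl40 gave -0.62 and -0.39.

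Mrpl48 was at 7.52 to 7.93 in CON (median 7.72), at 7.22, 7.30, 7.35, 7.31 and 7.57 in RVF+ and at 7.43, 7.34, 7.15 and 7.45 in RVF. RVF+ 12 alone reached into the range of CON. Mrpl48 was lower in both, at -0.37 ± 0.09 in RVF+ (adjusted p = 0.0039) and -0.38 ± 0.09 in RVF (adjusted p = 0.00884). Mrpl58, once known as ICT1, sits in the same region and is an enzyme that can free a chain from a stalled ribosome. It was at 8.33 to 8.46 in CON (median 8.43), at 7.63, 8.14, 8.01, 8.00 and 8.19 in RVF+ and at 7.95, 8.07, 8.02 and 8.05 in RVF. Neither group overlapped with CON. The difference was -0.41 ± 0.08 in RVF+ (1.33-fold lower, adjusted p = 0.00104) and -0.38 ± 0.09 in RVF (1.30-fold lower, adjusted p = 0.00531). Mrpl46, also of the central protuberance, did not pass in either (-0.20 and -0.15, adjusted p = 0.363 and 0.592).

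Mrpl45, which tethers the ribosome to the inner membrane near the tunnel exit, was at 9.12 to 9.52 in CON (median 9.26). It was at 8.52, 8.81, 8.83, 8.65 and 9.14 in RVF+ and at 8.89, 8.86, 8.84 and 8.88 in RVF, so that RVF+ 12 overlapped with CON. The probe set used gave -0.49 ± 0.09 in RVF+ (adjusted p = 0.00074) and -0.41 ± 0.10 in RVF (adjusted p = 0.008). A second, dim probe set of the gene, at a CON mean of 3.80, gave 0.08 ± 0.11 and 0.12 ± 0.12, the opposite direction and not called. With the mean of both probe sets neither call remained (adjusted p = 0.0515 and 0.249).

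Mrpl44, which has a domain like that of ribonuclease III, was lower in both groups (-0.53 ± 0.11, adjusted p = 0.00183, and -0.39 ± 0.12, adjusted p = 0.0322). Mrpl12 forms the flexible stalk that recruits translation factors and is also known to bind the mitochondrial RNA polymerase. It was at 7.48 to 7.85 in CON (median 7.80), at 7.05, 7.58, 7.05, 7.16 and 7.64 in RVF+ and at 7.46, 7.39, 7.56 and 7.47 in RVF. RVF+ 9 and 12 and RVF 15 lay within the range of CON. The fall in RVF+ passed (-0.42 ± 0.11, adjusted p = 0.00752) and the difference in RVF did not (-0.25, adjusted p = 0.165). With RVF and CON fitted alone, the difference in RVF passed (adjusted p = 0.0417). Mrpl10, which anchors that stalk, differed by -0.066 and 0.15, with adjusted p = 0.572 and 0.224.

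The other large subunit genes lower in RVF+ were Mrpl2, Mrpl3, Mrpl14, Mrpl15, Mrpl16, Mrpl17, Mrpl35, Mrpl50 and Mrpl51, with differences from -0.24 (Mrpl17) to -0.44 (Mrpl50). None of these 9 passed in RVF. Mrpl35 and Mrpl51 show how RVF+ 12 differed from its group. Mrpl51 was at 10.17 to 10.28 in CON, at 9.54, 9.76, 9.69 and 9.70 in RVF+ 8 to 11, but at 10.24 in RVF+ 12. Mrpl35 was at 9.34 to 9.46 in CON, at 8.75, 9.02, 8.72 and 8.96 in RVF+ 8 to 11, and at 9.52 in RVF+ 12, above every CON array. At the other end, Mrpl54 (-0.045 and 0.0074), Mrpl32 (0.0067 and -0.066) and Mrpl36 (0.080 and 0.31) did not pass in either comparison. Mrpl36 was spread widely in CON, from 7.44 to 8.17, and its difference in RVF had an adjusted p of 0.133.

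Of the small subunit, 14 of 25 genes fell in RVF+ and 1 rose, with a median of -0.28. With Mrps30 and Mrps18a counted in the large subunit, 18 of 41 large and 13 of 23 small subunit genes fell. Mrps31, a protein found only in mitochondrial ribosomes, had the smallest p of its subunit. Its level was 6.94 to 7.18 in CON (median 7.07). It was 6.39, 6.49, 6.42, 6.64 and 6.75 in RVF+ and 6.70, 6.76, 6.55 and 6.67 in RVF. All 9 arrays lay below CON. The difference was -0.51 ± 0.07 in RVF+ (1.43-fold lower, adjusted p = 7.66e-05) and -0.38 ± 0.08 in RVF (1.30-fold lower, adjusted p = 0.00304).

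Mrps30, also known as a protein linked to programmed cell death, was at 8.89 to 9.33 in CON (median 8.95). It was at 8.44, 8.58, 8.41, 8.49 and 8.76 in RVF+ and at 8.66, 8.60, 8.68 and 8.74 in RVF, again with no overlap with CON. It was lower in both, with a difference of -0.50 ± 0.09 in RVF+ (1.42-fold, adjusted p = 0.000309) and of -0.37 ± 0.09 in RVF (1.29-fold, adjusted p = 0.00973). The conserved proteins Mrps15, Mrps16, Mrps11 and Mrps9, which have relatives in bacteria, were lower in both groups. Mrps15 was at 8.76 to 9.03 in CON (median 8.93), at 8.23, 8.58, 8.31, 8.50 and 8.67 in RVF+ and at 8.35, 8.56, 8.64 and 8.60 in RVF. It lay below CON in all 9 arrays, with differences of -0.45 ± 0.09 (adjusted p = 0.000775) and -0.37 ± 0.09 (adjusted p = 0.00984).

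Mrps16 was at 8.10 to 8.29 in CON (median 8.14), at 7.48, 7.97, 7.84, 7.62 and 7.81 in RVF+ and at 7.79, 7.87, 7.94 and 7.99 in RVF. Its differences were -0.42 ± 0.08 (adjusted p = 0.000777) and -0.27 ± 0.09 (adjusted p = 0.0393). Mrps11 differed by -0.28 ± 0.07 (adjusted p = 0.00693) and -0.31 ± 0.08 (adjusted p = 0.00933), with RVF+ 12, at 7.84, inside the CON range of 7.73 to 7.92. Mrps16 in turn had no array of RVF+ or RVF inside the range of CON. Mrps28 was at 6.33 to 6.61 in CON (median 6.45), at 5.73, 6.09, 5.85, 6.09 and 6.23 in RVF+ and at 6.03, 6.19, 6.27 and 6.13 in RVF. It too lay below CON throughout, with differences of -0.45 ± 0.09 (adjusted p = 0.00081) and -0.30 ± 0.09 (adjusted p = 0.0333).

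Mrps27, an RNA-binding protein of the pentatricopeptide repeat family, was at 7.60 to 7.99 in CON (median 7.85), at 7.08, 7.09, 6.92, 7.43 and 7.83 in RVF+ and at 7.40, 7.67, 7.23 and 7.31 in RVF. RVF+ 12 and RVF 14 overlapped with CON. Its fall in RVF+ was among the largest (-0.55 ± 0.13, adjusted p = 0.00446), while that in RVF fell just short of the threshold (-0.41 ± 0.14, adjusted p = 0.0501). Mrps27 passed in RVF without RVF+ 8 (adjusted p = 0.0342) and with array weights (adjusted p = 0.00684). Over all runs with 1 array left out, its adjusted p in RVF was up to 0.15. Mrps9, Mrps14 and Mrps24 were lower in both groups. Their calls in RVF were close to the threshold (adjusted p = 0.0472, 0.0467 and 0.0344). These RVF calls held in 13, 11 and 17 of 25 alternative runs. Mrps5 and Mrps35 were called in RVF+ alone (-0.23 ± 0.07, adjusted p = 0.0239, and -0.46 ± 0.13, adjusted p = 0.0128).

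The 3 Mrps18 genes encode relatives of 1 bacterial protein that take different places: Mrps18b and Mrps18c in the small subunit and Mrps18a in the large. Mrps18c was at 9.10 to 9.49 in CON (median 9.25), at 8.56, 8.82, 8.98, 8.97 and 8.88 in RVF+ and at 8.54, 8.80, 8.86 and 8.85 in RVF. It did not overlap with CON in either group, and had the smallest p of all members in RVF. The difference was -0.42 ± 0.09 in RVF+ (1.34-fold lower, adjusted p = 0.00217) and -0.50 ± 0.10 in RVF (1.42-fold lower, adjusted p = 0.00163). Mrps18b was at 8.68 to 8.97 in CON (median 8.81), at 8.07, 8.56, 8.22, 8.21 and 8.64 in RVF+ and at 8.59, 8.80, 8.71 and 8.37 in RVF. All RVF+ arrays lay below CON, while RVF overlapped with it. It was lower in RVF+ (-0.46 ± 0.10, adjusted p = 0.00249), and its difference of -0.18 in RVF did not pass (adjusted p = 0.281). Mrps18a passed in neither (-0.14, adjusted p = 0.165, and -0.075, adjusted p = 0.577), with CON at 8.75 to 9.02, RVF+ at 8.61 to 8.93 and RVF at 8.82 to 8.89. Whether the 3 genes differed from each other in their response was not tested.

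**Figure D2:**
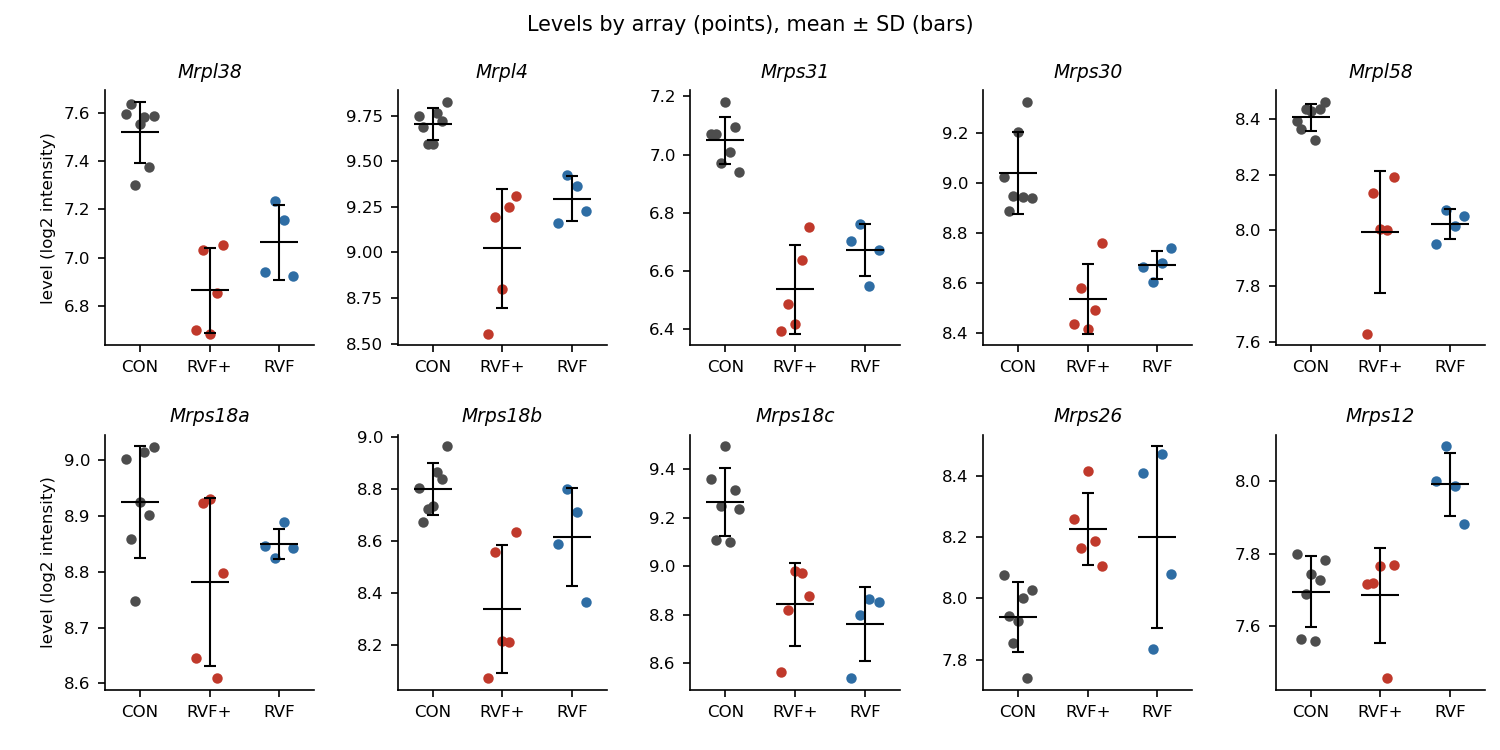
Log2 intensity of 10 mitochondrial ribosomal protein genes in the 7 CON, 5 RVF+ and 4 RVF arrays, each point an array, with the mean as a long bar and the SD as error bars; each panel has its own vertical axis, which does not start at 0. Mrpl38, Mrpl4, Mrps31, Mrps30, Mrpl58 and Mrps18c lay below all CON arrays in both groups, Mrps26 lay above them in RVF+ and Mrps12 above them in RVF.

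Mrps26 and Mrps12 were the members that rose, each in 1 comparison. Mrps26, a small subunit protein found only in mitochondrial ribosomes, was at 7.74 to 8.08 in CON (median 7.94). It was at 8.26, 8.17, 8.42, 8.19 and 8.11 in RVF+, all above every CON array, and at 8.41, 7.84, 8.47 and 8.08 in RVF. RVF 13 and 15 were high and RVF 14 lay within CON. The rise was 0.29 ± 0.10 in RVF+ (1.22-fold, adjusted p = 0.0417), and 0.26 ± 0.11 in RVF did not pass (adjusted p = 0.111). The call in RVF+ was close to the threshold: it was lost under median centring (0.24, adjusted p = 0.0844), with array weights (0.27, adjusted p = 0.0902), and when any 1 of CON 2, 3, 4, 5 or 6 or RVF+ 8, 9, 10 or 11 was left out (0.24 to 0.30, adjusted p up to 0.11). Without RVF 14, Mrps26 rose in RVF (0.38, adjusted p = 0.0183).

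Mrps12, the relative of a bacterial protein at the decoding centre of the ribosome, was at 7.56 to 7.80 in CON (median 7.73). It was at 7.72, 7.72, 7.77, 7.46 and 7.77 in RVF+, within the range of CON but for RVF+ 11, and at 8.00, 8.10, 7.99 and 7.88 in RVF, above every CON array. The rise in RVF was 0.30 ± 0.08 (1.23-fold, adjusted p = 0.0141), and the difference in RVF+ was -0.0096 ± 0.07 (adjusted p = 0.943). Without RVF 14 the call in RVF was lost (0.26, adjusted p = 0.0578). A pseudogene, Mrps17-ps1, is no member by the rule. Its probe set was higher in RVF+ (0.43 ± 0.10, adjusted p = 0.00346), while Mrps17 itself did not pass (-0.12, adjusted p = 0.226).

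**Figure D3:**
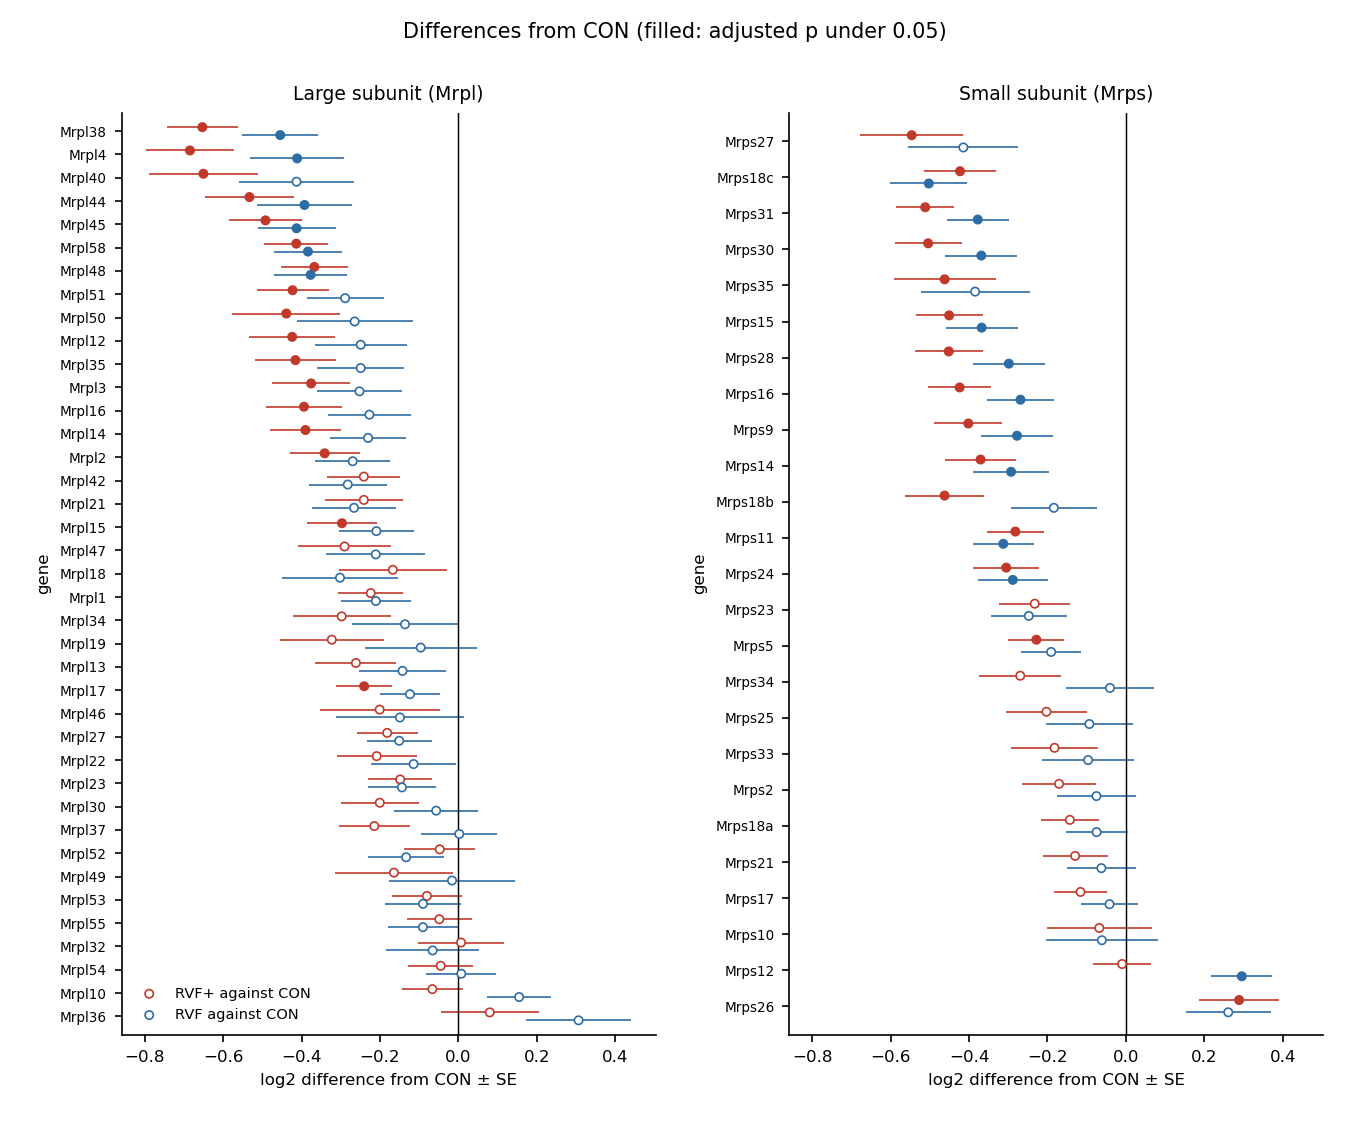
Log2 difference from CON of each member in RVF+ (red) and RVF (blue), with the SE as error bars, for the large (left) and small (right) subunit; filled points passed the adjusted p threshold of 0.05 and open points did not. In RVF+ 31 genes were filled to the left of 0 and Mrps26 to the right, and in RVF 16 to the left and Mrps12 to the right.

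The second comparison asks how RVF differed from CON. Here 16 of the 64 members fell and 1, Mrps12, rose, 25% and 1.56%, against 8.29% of all genes lower and 8.86% higher. In the brighter part of the genes, 12.6% were lower and 12.9% higher. The median log2 difference was -0.21, against -0.0087 over all genes, 58 members had a negative difference and 32 were lower at an unadjusted p under 0.05. The members that fell were 6 of 39 in the large subunit and 10 of 25 in the small, with medians of -0.21 and -0.25. All 4 RVF arrays lay below all CON arrays in 23 members (9% of all genes did so), 12 large and 11 small, and above them in 1 (9.83%). The count of lower members depended on the spread estimate and on single arrays. It was 28 when RVF and CON were fitted alone and with array weights, 25 without RVF+ 8, and 9 without RVF 13 or RVF 16. The share of all genes lower moved too, from 8.29% in the main fit. That share was 11.7% with RVF and CON alone, 12.8% with array weights and 11.2% without RVF+ 8. Without RVF 13 and without RVF 16 it was 6.14% and 6.15%. The 10 small subunit genes became 4 without RVF 13, 5 without RVF 16, 6 without CON 1, 2, 5 or 6 or RVF 14 or 15, and 13 without RVF+ 8. The 6 large subunit genes became 5, 4 and 12 without RVF 13, RVF 16 and RVF+ 8.

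The 16 members lower in RVF were also called lower in RVF+ (25% of members, against 7.34% of all genes lower in both). As the 2 comparisons share the CON arrays, nothing is read from that. They were Mrpl4, Mrpl38, Mrpl44, Mrpl45, Mrpl48 and Mrpl58 of the large subunit and Mrps9, Mrps11, Mrps14, Mrps15, Mrps16, Mrps18c, Mrps24, Mrps28, Mrps30 and Mrps31 of the small. In the main fit, the other 15 were called in RVF+ alone and 31 members passed in neither comparison. No member was lower in one and higher in the other. Mrpl40 and Mrps27, among the 15, also passed in RVF without RVF+ 8. A second probe set of Mrpl42, among the 31, was lower in RVF (-0.37 ± 0.11, adjusted p = 0.0282 over all probe sets with 1 symbol). The probe set used for Mrpl42 was not called there (-0.28 ± 0.10, adjusted p = 0.0591).

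The third comparison sets RVF+ against RVF. No member passed in limma, nor did any of the 17245 genes (0%), and 4 members and 1242 genes had an unadjusted p under 0.05. The median difference over the members was -0.091, against -0.0051 over all genes, and 52 of 64 were lower in RVF+ (81.2%, against 51.8% of all genes). This median depended on single arrays: it was -0.041 without RVF+ 8, -0.050 with array weights and -0.168 without RVF+ 12. Mrps12 had the smallest p, at -0.31 with a 95% interval of -0.48 to -0.13 (adjusted p = 0.403). It was followed by Mrpl10 at -0.22 (-0.41 to -0.04, adjusted p = 0.613), Mrps18b at -0.28 (-0.52 to -0.03, adjusted p = 0.622), Mrpl4 at -0.27 (-0.55 to -0.0016, adjusted p = 0.69) and Mrpl37 at -0.22 (-0.44 to 0.0025, adjusted p = 0.692). Genes called in RVF+ alone are therefore not shown to differ between RVF+ and RVF.

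The spread of the members over arrays differed between the groups. The median of all 64 differences from the CON mean was -0.51 in RVF+ 8, -0.21 in RVF+ 9, -0.34 in RVF+ 10, -0.33 in RVF+ 11 and -0.067 in RVF+ 12. In RVF 13 to 16 it was -0.22, -0.25, -0.18 and -0.22, and in the CON arrays it ran from -0.079 to 0.039. RVF+ 12 thus came within the range of CON, and the RVF arrays lay close together. RVF+ 8 was the lowest RVF+ array in 40 of the 64 members, and RVF+ 12 the highest in 45. The number of members below every CON array was 51, 38, 48, 52 and 19 in RVF+ 8 to 12 (79.7%, 59.4%, 75%, 81.2% and 29.7%), where 32.6%, 23.9%, 26.4%, 21.9% and 20.7% of all genes were. In RVF 13 to 16 it was 40, 37, 34 and 38 (62.5%, 57.8%, 53.1% and 59.4%), against 23.2%, 22.8%, 20.9% and 22.8% of all genes. Without RVF+ 12, 40 members were lower in RVF+, and 14.1% of all genes were.

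Large and small subunit had similar medians in each array. The median over the large subunit was -0.50, -0.19, -0.35, -0.34 and -0.071 in RVF+ 8 to 12, and that over the small subunit -0.51, -0.24, -0.34, -0.29 and -0.063. The large minus small difference was -0.0086 ± 0.029 in CON (SD, n = 7), 0.0017 ± 0.034 in RVF+ (SD, n = 5) and 0.024 ± 0.020 in RVF (SD, n = 4), and the arrays of the 3 groups overlapped in it. The larger share of small than of large subunit genes called in RVF stands beside these similar medians. Both counts moved with single arrays, as given above. With Mrps30 and Mrps18a counted in the large subunit, 17.1% of large and 39.1% of small subunit genes fell in RVF. The difference between these shares was not tested.

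**Figure D4:**
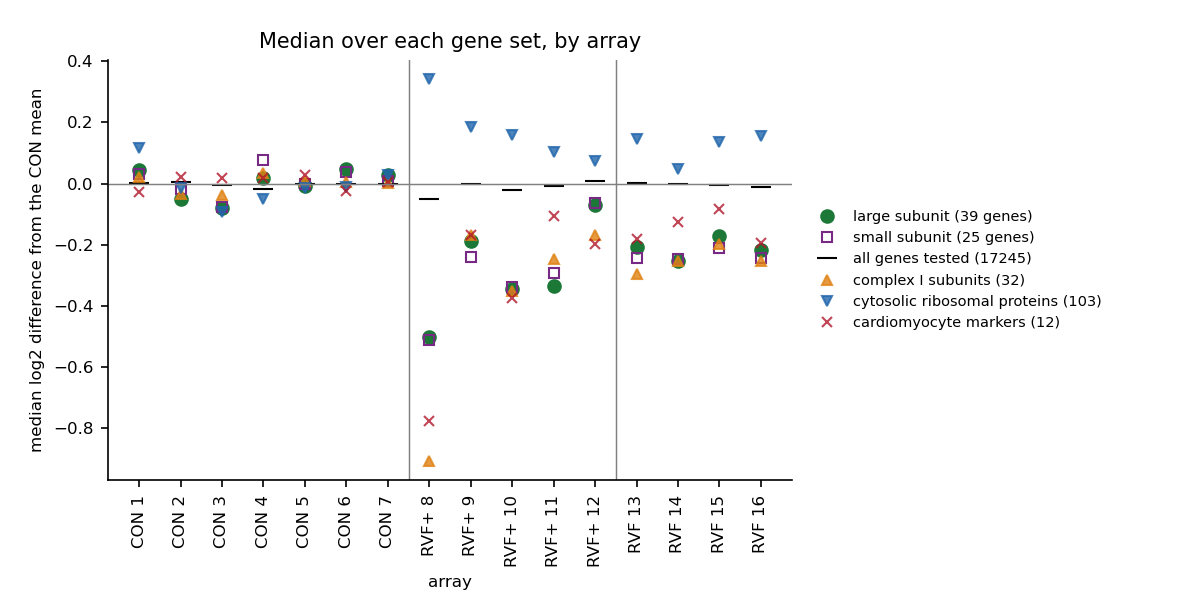
Median log2 difference from the CON mean in each of the 16 arrays over the 39 large subunit genes, the 25 small subunit genes, all 17245 genes tested, 32 complex I subunits, 103 genes named for cytosolic ribosomal proteins (like-named copies included) and 12 cardiomyocyte markers. Large and small subunit points lie close together in every array, and among the RVF+ and RVF arrays they were lowest in RVF+ 8 and nearest to 0 in RVF+ 12, while the cytosolic ribosomal proteins lie above 0 in all 9 arrays of RVF+ and RVF.

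Part of the genes that build, modify and feed the mitochondrial ribosome fell. Over all genes, 13.6% fell and 14.1% rose in RVF+, and 8.29% fell and 8.86% rose in RVF. Without RVF+ 8 these shares were 12% and 12.9%, and 11.2% and 13.4%. They stand beside all lists below. Of 23 genes for ribosome assembly and rRNA modification, 13 fell in RVF+ and 5 in RVF, and none rose, while 10 and 18 did not pass, with medians of -0.28 and -0.20. Trub2, a pseudouridine synthase, fell by 0.82 ± 0.09 and 0.72 ± 0.10 on the log2 scale (adjusted p = 5.56e-06 and 5.15e-05), and Mettl15, which methylates the small ribosomal RNA, by 0.71 ± 0.09 and 0.67 ± 0.10 (adjusted p = 2.16e-05 and 0.000126). Of 14 translation factors, 10 fell in RVF+ and 5 in RVF. Mrrf, which recycles ribosomes after termination, was -0.50 ± 0.09 and -0.49 ± 0.10 (adjusted p = 0.000633 and 0.00197). Tufm, the elongation factor that brings aminoacyl-tRNA, fell in RVF+ (-0.43 ± 0.11, adjusted p = 0.00638) and was -0.010 ± 0.12 in RVF (adjusted p = 0.966). Its RVF+ against RVF difference of -0.42 did not pass (adjusted p = 0.434). Taco1, an activator of translation of a cytochrome oxidase subunit, fell in both (-0.67 ± 0.10, adjusted p = 0.000126, and -0.38 ± 0.11, adjusted p = 0.0236).

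Of 19 genes for charging mitochondrial tRNAs, 12 fell in RVF+ and 7 in RVF, and none rose. Sars2 and Lars2, which load serine and leucine, were -0.56 ± 0.07 and -0.52 ± 0.08 in RVF+ (adjusted p = 2.03e-05 and 0.000142) and -0.34 ± 0.08 and -0.39 ± 0.09 in RVF (adjusted p = 0.00393 and 0.00455). Without RVF+ 8, the counts in RVF+ were 12 of 23 assembly genes, 10 of 14 translation factors and 9 of 19 genes of tRNA charging. Of 5 mitochondrial ribosomal proteins with other names, Gadd45gip1 and Ptcd3 fell in RVF+ (-0.26 and -0.27, adjusted p = 0.0323 and 0.0344) and Chchd1 in RVF (-0.47, adjusted p = 0.00543). Chchd1 just missed the threshold in RVF+ (-0.27, adjusted p = 0.0507), and without RVF+ 8 Gadd45gip1 and Ptcd3 passed in RVF too (-0.27 and -0.26, adjusted p = 0.0417 and 0.0429). Dap3 (-0.17 and -0.11) and Aurkaip1 (-0.10 and -0.0096) passed in neither.

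Of 27 genes that copy, transcribe or stabilise mitochondrial nucleic acids, 15 fell and 1 rose in RVF+, and 8 fell and 1 rose in RVF. Without RVF+ 8 the counts were 13 and 0, and 12 and 2. Fastk, an RNA-binding protein of mitochondria, fell by 0.71 ± 0.09 and 0.50 ± 0.10 on the log2 scale (adjusted p = 2.66e-05 and 0.00172), and Hsd17b10, a subunit of mitochondrial RNase P, by 0.59 ± 0.08 and 0.56 ± 0.09 (adjusted p = 4.12e-05 and 0.000198). Lrpprc, which stabilises mitochondrial messenger RNAs, was -0.54 ± 0.10 in RVF+ (adjusted p = 0.000536) and -0.30 ± 0.10 in RVF (adjusted p = 0.0587). Without RVF+ 8, Lrpprc passed in RVF too (adjusted p = 0.0149). Polrmt, the RNA polymerase, fell in RVF+ (-0.37 ± 0.11, adjusted p = 0.0159). The genes that rose were Primpol, a primase-polymerase, in RVF+ (0.69 ± 0.23, adjusted p = 0.0322, but 0.39, adjusted p = 0.0515, without RVF+ 8) and Polg, the mitochondrial DNA polymerase, in RVF (0.31 ± 0.07, adjusted p = 0.00639). Primpol was 0.64 in RVF and did not pass (adjusted p = 0.0854), but it did without RVF+ 8 (adjusted p = 0.00257). The messenger RNAs encoded in mitochondrial DNA were not analysed here.

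Of 13 known regulators of mitochondrial genes, 9 fell and 2 rose in RVF+, and 2 fell and 1 rose in RVF. The RVF counts are 15.4% and 7.69%, against 8.29% and 8.86% of all genes, and too few to set apart from those. Without RVF+ 8 the counts were 9 and 1, and 7 and 1. The coactivators Ppargc1a (-0.81 ± 0.20, adjusted p = 0.00612) and Perm1 (-1.15 ± 0.23, adjusted p = 0.00113) and the nuclear receptor Esrra (-0.41 ± 0.10, adjusted p = 0.00399) fell in RVF+. In RVF they were -0.63, -0.60 and -0.24 and did not pass (adjusted p = 0.0533, 0.106 and 0.136), though Ppargc1a and Perm1 did without RVF+ 8 (adjusted p = 0.000392 and 0.00106). Tfam, which packages and transcribes mitochondrial DNA, fell in both (-0.33 ± 0.07, adjusted p = 0.00237, and -0.29 ± 0.08, adjusted p = 0.016). So did its partner in transcription Tfb2m (-0.50 ± 0.12, adjusted p = 0.00426, and -0.48 ± 0.13, adjusted p = 0.0154). Nrf1, whose motif is shown above, rose in RVF+ (0.24 ± 0.08, adjusted p = 0.0298) and was 0.087 in RVF (adjusted p = 0.543); without RVF+ 8 the rise was 0.20 and did not pass (adjusted p = 0.0768). Myc, a growth regulator, rose in both (0.91 ± 0.18, adjusted p = 0.00108, and 0.88 ± 0.19, adjusted p = 0.00434). Yy1 passed in neither (-0.086 and -0.055).

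The cytosolic ribosome makes all other proteins. Of 103 genes with symbols of its proteins, most did not pass (75 in RVF+ and 92 in RVF). The 103 include like-named copies, such as Rps12l4 and Rpl29l6, which were not counted apart. In RVF+ 27 rose and 1 fell, and in RVF 9 rose and 2 fell, with medians of 0.18 and 0.13. The count of rising genes was 19 in RVF+ and 15 in RVF without RVF+ 8. With arrays centred on their medians it was 17 in RVF+ and 4 in RVF, and both list medians stayed above 0. Of all genes, 11.6% were higher in RVF+ and 7.73% in RVF with that centring. Over all 103, copies included, the share that rose in RVF was 8.74%, near the 8.86% of all genes. The share without the copies was not taken. Rpl3 rose most in RVF+ (0.94 ± 0.12, adjusted p = 1.83e-05), and Rpl3l, its copy in muscle, fell (-1.36 ± 0.25, adjusted p = 0.000508). In RVF they were 0.76 ± 0.12 (adjusted p = 0.000372) and -1.07 ± 0.26 (adjusted p = 0.00886). The other gene of the list that fell in RVF was Rps10l2, a like-named copy (-0.41 ± 0.13, adjusted p = 0.0427). Of 32 nuclear genes for subunits of respiratory complex I, part of whose subunits the mitochondrial ribosome makes, 22 fell in RVF+ and 5 in RVF, with medians of -0.38 and -0.25. Without RVF+ 8 these counts were 19 and 20.

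**Figure D5:**
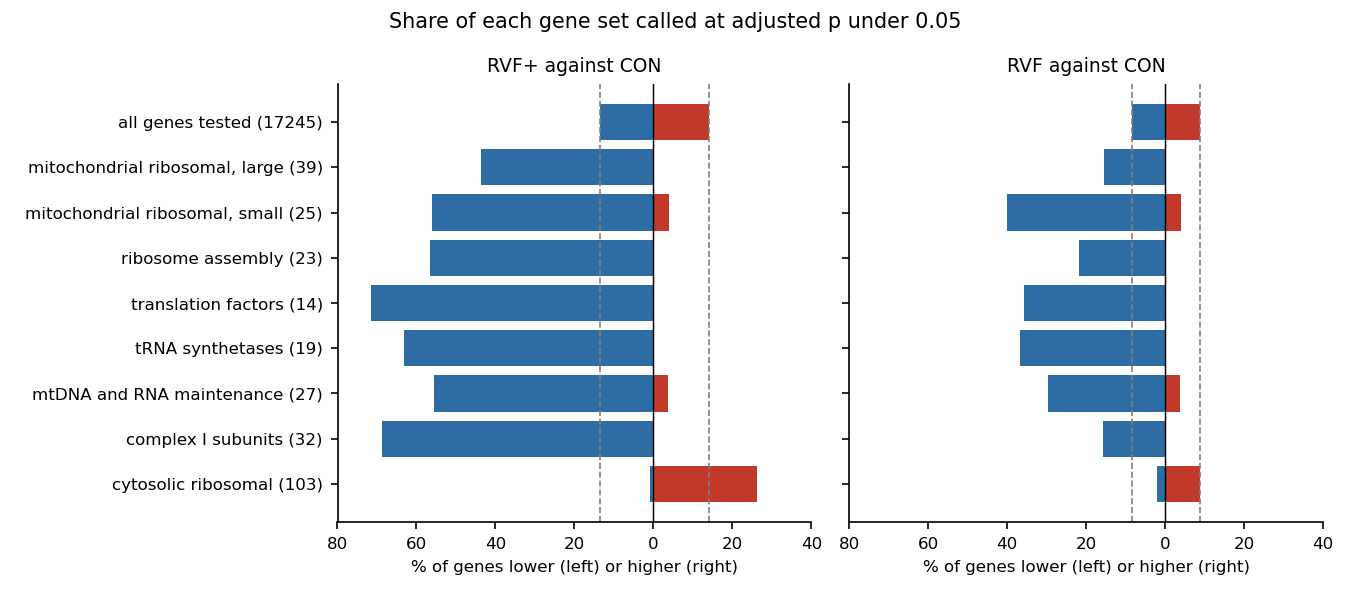
Percentage of the genes in each set that were lower (blue, to the left) or higher (red, to the right) at a limma adjusted p under 0.05, in RVF+ against CON and RVF against CON, with the number of genes in brackets; dashed lines mark the shares over all genes tested, 13.6% and 14.1% in RVF+ and 8.29% and 8.86% in RVF. The mitochondrial ribosome and the sets around it reach past the dashed line on the left in both panels, and the cytosolic ribosomal proteins reach past it on the right in RVF+.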

How the data were processed

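RNA from right ventricular wall was labelled from 500 ng of total RNA without rRNA reduction, per the labels' protocols. What the authors deposited is a linear intensity per probe set, and RMA (background correction, quantile normalization and probe summary) is named in the submitters' processing notes. No software version or annotation build was given in the sources used here. Log2 was taken of the deposited intensity values. RMA compresses differences of dim probe sets, and the few arrays limit the precision.

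Of 29214 probe sets, the 18644 with exactly 1 gene symbol in the array annotation were used, and the brightest on average stood for its gene, which left 17245 genes. The 8 probe sets that a mitochondrial ribosomal protein gene shares with another symbol were not used. No filter on low values was set, so all 64 members were tested. Group means over all 16 arrays were fitted with limma 3.58.1 (lmFit, eBayes) in R 4.3.3, with 13 residual and 4.45 prior degrees of freedom. In each of 3 comparisons, two-sided p-values received the Benjamini-Hochberg adjustment across the 17245 genes. Neither batches nor pairs of samples are given. The procedure was tested on simulated data.

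The members and gene lists were chosen with earlier results of these data known, so lists are described by counts and medians and not tested. Named were members called higher, the 8 with the smallest p among those lower (the 5 with the smallest p where none passed), the 5 with the largest and the 5 with the smallest mean fall, members whose probe sets disagree, the Mrps18 genes and those with a known second role, and of other lists the 3 genes with the smallest p, or any gene of lists of up to 15. All further genes, such as Mrpl32, Mrpl35, Mrpl44, Mrpl46, Mrpl51, Polrmt, Primpol and Polg, and the 4 promoters with motifs, were named after their values were seen. Alternatives were quantile normalization, median centring, a filter on dim genes, averaged probe sets, all probe sets, the compared groups alone, trend, robust moderation (statmod 1.5.0), array weights and leaving out each array. Counting Mrps30 and Mrps18a with the large subunit was added after seeing the data.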

Additional observations from a re-analysis of the deposited data

Results flagged for a closer look

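Within a group of arrays, a single value was marked where its gap to the nearest other array was large against the whole range of the group (Dixon's criterion at 95%). Of 78 groups looked at, 4 were marked, and chance alone marks about 5% of groups. Mrpl40 in RVF+ was at 7.42 on the log2 scale in RVF+ 8, with the nearest array at 8.21. Mrps12 in RVF+ was at 7.46 in RVF+ 11, with the nearest at 7.72 and the highest at 7.77. Mrpl54 in CON was at 9.99 in CON 1, with the nearest at 9.78. The small subunit median in RVF was -0.211 in RVF 15, with the other 3 arrays between -0.247 and -0.245, a narrow range in which the gap is small in size.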

How the results depend on the processing

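In every alternative run, the median difference of the members from CON was negative in both comparisons, and no call turned to the opposite call. Of the 32 calls in RVF+ against CON, 27 were kept in all alternatives that tested the gene (Mrpl2 was left out by the filter on dim genes), and Mrpl15, Mrpl45, Mrpl50, Mrps5 and Mrps26 were lost in at least 1. Of the 17 in RVF against CON, 7 were kept in all (Mrpl38, Mrpl48, Mrpl58, Mrps11, Mrps18c, Mrps30 and Mrps31). Mrps14, Mrps9, Mrps16 and Mrps24 were kept in 11, 13, 15 and 17 of 25, and Mrpl44 and Mrps28 in 18. The others, Mrpl4, Mrpl45, Mrps12 and Mrps15, were kept in 23 or 24. The number of members higher in RVF+ was 0 under median centring and with array weights, and 0 to 1 with 1 array left out. The number lower in RVF was 28 with only the 2 groups compared, 28 with array weights, and 9 to 25 with 1 array left out. That in RVF+ was 28 to 40 with 1 array left out. The shares of all genes lower beside these counts are given above. Of all genes, 11.6% were higher in RVF+ under median centring, 12.6% with array weights and 12.4% to 15.1% with 1 array left out. The number higher in RVF stayed at 1, but without RVF 14 that gene was Mrps26 instead of Mrps12. Reversals of sign were limited to uncalled differences near 0. Mrpl37 in RVF was -0.0285 under median centring and -0.0229 to 0.0552 with 1 array left out. Mrpl54 in RVF+ was 0.00603 with array weights and -0.0936 to 0.0109 with 1 array left out, and in RVF -0.0234 under median centring and -0.0625 to 0.0566 with 1 array left out. Mrps12 in RVF+ was -0.0321 to 0.0478 with 1 array left out. The cause of these changes was not tested. No paired analysis was possible because the groups share no replicate numbers. No detection calls were used, so signal over background could not be judged.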
